A study of Mus musculus with 32 samples.

Results

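The genes of the mitochondrial respiratory chain were followed through hypoxia-ischemia (HI) at both ages studied and through normal development of the neonate mouse brain. Members were taken by symbol alone: every gene starting with Ndufa, Ndufb, Ndufc, Ndufs or Ndufv (complex I), Uqcr (complex III), Cox4 to Cox8 (complex IV, cytochrome c oxidase) or Atp5 (ATP synthase), with Sdha, Sdhb, Sdhc and Sdhd (complex II) and Cyc1 (complex III). The rule matched 116 symbols in the RefSeq annotation, 19 of them annotated as pseudogenes, and 94 of these genes had a probe on the array. A probe was kept when its mean signal reached 100 in a channel of an HI group, and 92 members passed, of 13759 named genes that passed of 20832 named genes on the array. They comprised 38 complex I subunits, 8 complex I assembly factors that share the Ndufa prefix (Ndufaf), 4 genes of complex II, 9 of complex III, 16 of complex IV and 17 of ATP synthase. The 2 members under the minimum were the muscle and testis isoforms Cox8b and Cox8c, with highest group means of 89.3 and 21.0. Just above it stood Cox7b2 at 141 and Ndufab1 at 226. Ndufb1 had no probe.

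The respiratory chain passes electrons from NADH and succinate to oxygen through complexes I to IV and pumps protons across the inner mitochondrial membrane, and ATP synthase uses that proton gradient to make ATP. Each complex has a catalytic core, which carries the flavins, iron-sulfur clusters, hemes or nucleotide sites, and smaller accessory subunits around it. Neurons depend on this pathway for most of their ATP, and some cytochrome c oxidase subunits exist as a widespread form and a form best known from heart and skeletal muscle.

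All animals were NMRI mice. HI was a permanent ligature of the right carotid followed, after 1 h, by 40 min at 8% oxygen, at postnatal day 5 (P5) or 10 (P10), and the hemisphere on the ligated side was taken 3, 6, 12 or 24 h later. Each of the 24 HI arrays set RNA of an HI pool, labelled with Cy5, against RNA of a pool from naive animals of the same age and time, labelled with Cy3, with 3 arrays in each combination of age and time and 6 hemispheres in a pool. The naive animals came from the same litters and were not sham-operated, so that the ratio holds every part of the procedure, and no HI array had its dyes swapped. A further 8 arrays held 4 naive pools at P2 and 4 at P15 with balanced dye swaps. The arrays lay on 8 slides of 4: slides 1 to 3 held P5, slides 4 to 6 held P10, and slides 7 and 8 each held 2 P2 and 2 P15 arrays. Age at P5 or P10 and slide therefore cannot be told apart, whereas each slide of HI arrays held all 4 time points. Between 57.9% and 91.9% of the probes of an HI array channel were well above background, and no probe was saturated. The RNA came from whole hemispheres, in which fewer cells of a type and less RNA per cell cannot be told apart. The labels call the arrays of a group biological replicates without saying how the litters were divided among pools. The main fits hold no slide term, and their p-values measure the spread between these pools together with that between slides. Arrays of one slide resembled each other, with an estimated correlation of 0.232 for the HI ratios and 0.757 for the naive levels. The main p-values for naive levels treat such arrays as independent.

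After HI at P5 the respiratory chain genes stayed close to the naive level. None of the 92 passed an adjusted p of 0.05 together with a 1.5-fold change (limma, adjusted over all probes) at 3, 6, 12 or 24 h, against 2.57%, 3.9%, 5.32% and 2.35% of all genes in either direction. At an unadjusted p under 0.05, without a fold limit, 19, 29, 35 and 28 members passed at the 4 times. No share of all genes is given for that threshold, so these counts say nothing particular about the members. The test against a ratio of zero from the study's methods called 0 at each time with the 1.5-fold limit. Without the fold limit, 6, 14, 18 and 9 members were lower at an adjusted p under 0.05, which is 6.52%, 15.2%, 19.6% and 9.78% of the members against 3.97%, 8.44%, 10.1% and 2.67% of all genes. No member was higher, against 4.24%, 6.8%, 7.62% and 3.8% of all genes. The medians of the members' log2 ratios were −0.04, −0.09, −0.09 and −0.07, and those of all genes lay between −0.02 and 0.

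Cox4i1, the widespread form of subunit IV of cytochrome c oxidase, was among the members lower at all 4 P5 times. Its log2 ratios of HI over naive at 6 h were −0.26, −0.21 and −0.59, with a mean of −0.35 ± 0.21 (SD, n = 3, adjusted p = 0.00454). All 3 HI pools were below their naive partner, and the third lay furthest below. The same gene had one of the strongest dye differences of all members: on the P2 and P15 arrays, where naive RNA was in both channels, Cy5 over Cy3 was −0.26 on the log2 scale. With that dye difference taken out of the ratio, Cox4i1 stood at −0.01, −0.09, −0.08 and −0.11 at 3, 6, 12 and 24 h at P5, and none of the 4 values passed the test (adjusted p of 0.608 at 6 h).

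The dye difference was set against the HI ratio for all 92 members, because every HI pool carried Cy5. It ran from −0.26 for Cox4i1 to 0.28 for Cox6a1, the widespread form of subunit VIa. Across members, the Spearman correlation between dye difference and P5 ratio was 0.74, 0.65, 0.71 and 0.67 at 3, 6, 12 and 24 h, and at P10 it was 0.42, 0.25, 0.29 and 0.38. Across all genes the same values were 0.38, 0.28, 0.26 and 0.31 at P5 and 0.14, 0.13, 0.16 and 0.02 at P10. These are descriptions over genes of the same arrays and not over independent samples. With the dye difference taken out, 0, 1, 5 and 0 members were lower at P5 at an adjusted p under 0.05, against 1.38%, 3.76%, 5.32% and 0.93% of all genes. The single member at 6 h was Ndufb3, and the 5 at 12 h were Atp5h, Ndufaf2, Ndufb4, Ndufb8 and Ndufs5, with log2 ratios from −0.30 to −0.23.

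**Figure D1:**
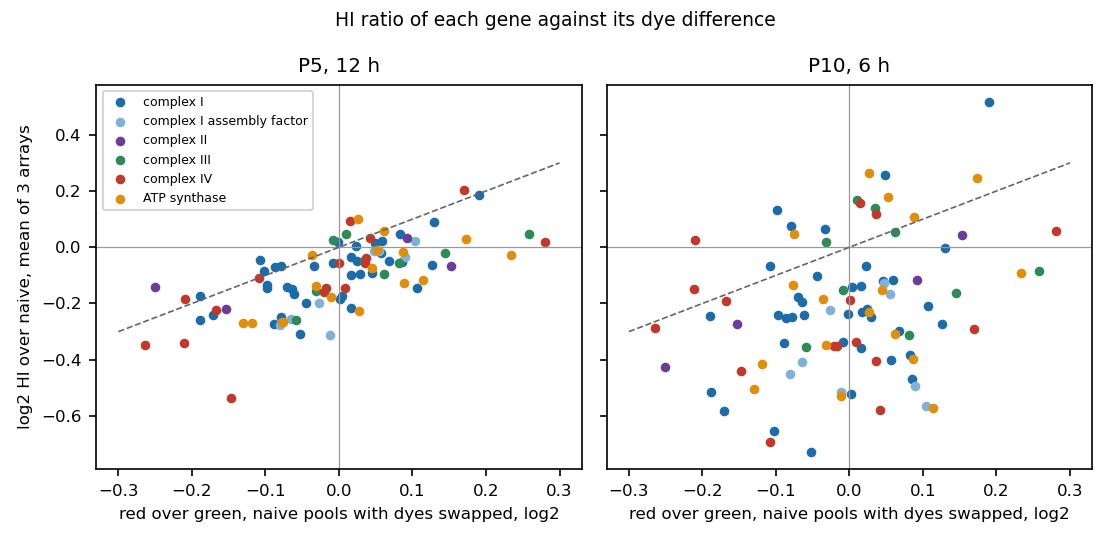
Log2 ratio of HI over naive (vertical axis) against the log2 dye difference of Cy5 over Cy3 measured on naive RNA (horizontal axis) for the 92 members, at P5 12 h and at P10 6 h; each point is a gene and the dashed line marks equality. At P5 12 h the points follow the dye difference (Spearman 0.71), and at P10 6 h most of them lie below the line (Spearman 0.25).

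After HI at P10 more respiratory chain genes were lower than higher, by small amounts, with the lowest medians at 6 and 12 h. At 6 h, 51 members were lower and 5 higher at an adjusted p under 0.05, which is 55.4% and 5.43% of the members against 23.1% and 19% of all genes. At 12 h, 49 were lower and 2 higher, or 53.3% and 2.17%, against 18.4% and 17.5% of all genes. At 3 h the counts were 18 lower and 9 higher, or 19.6% and 9.78%, against 9.72% and 14.8%, and at 24 h they were 30 lower and 13 higher, or 32.6% and 14.1%, against 19.2% and 28.8%. The median log2 ratio of the members was −0.09, −0.23, −0.21 and −0.08 at the successive times, while the median of all genes was 0.01, −0.01, −0.01 and 0.05. Of the 92 members, 63, 73, 74 and 60 had a mean below 0 at the 4 times.

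With the dye difference taken out, the fall at P10 kept its size: the medians were −0.08, −0.21, −0.21 and −0.07, with 14, 45, 47 and 23 members lower against 7.49%, 20.4%, 15.4% and 17.3% of all genes. Higher were 7, 3, 1 and 7 members, against 12.4%, 16.6%, 15% and 27.7% of all genes.

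Few members moved by more than 1.5-fold. At 3 h 0 passed that limit, against 5.89% of all genes in either direction. There 42 members had an unadjusted p under 0.05, a count without a share of all genes beside it. At 6 h 3 were lower (3.26% of the members, against 6.61% of all genes), at 12 h 5 (5.43%, against 3.86%) and at 24 h 1 (1.09%, against 6.37%). The share of members past 1.5-fold was thus below that of all genes at 3, 6 and 24 h, whereas the share of members with smaller decreases was above it. The count at 6 h was 9 without the third P10 array at that time, and the count at 12 h was 3 without the first array. With the dye difference taken out the count at 6 h stayed at 3 but 2 of the genes changed: Ndufb4 (−0.67), Atp5mpl (−0.68) and Ndufaf8 (−0.67) passed, and Ndufa4 and Cox7a1 did not. At 12 h Ndufb4, Atp5mpl and Ndufaf2 then passed, with −0.60, −0.61 and −0.61, and at 24 h 0 did.

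**Figure D2:**
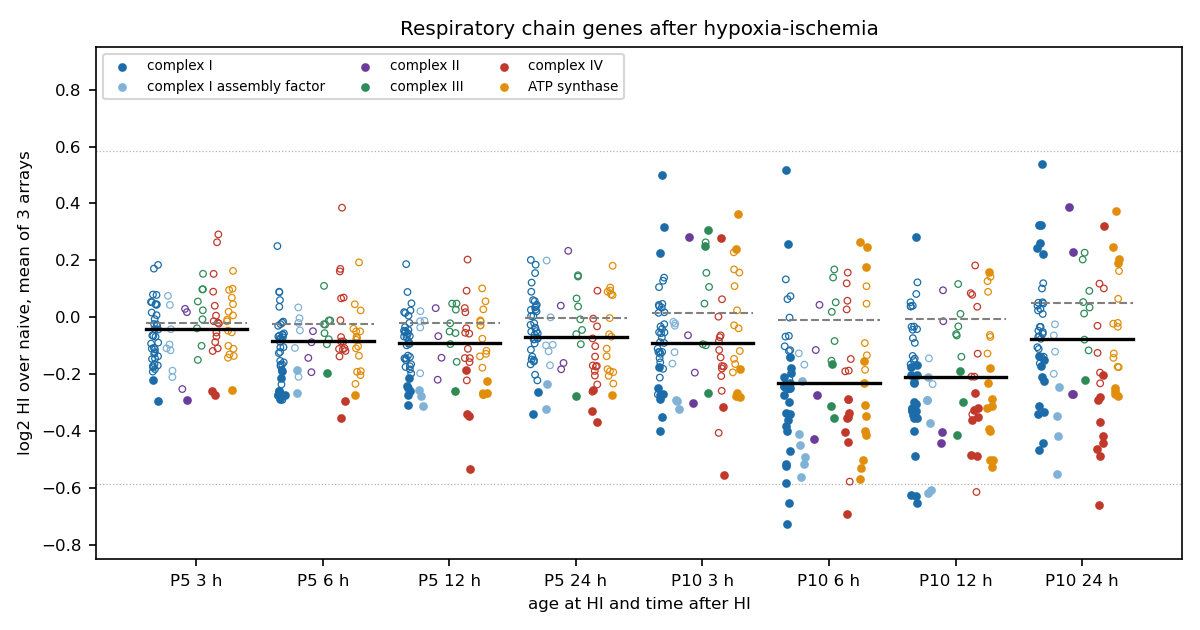
Mean log2 ratio of HI over naive (vertical axis) of each of the 92 members in the 8 groups of age and time, coloured by complex; filled points have an adjusted p under 0.05 and open points do not, the black line is the members' median, the grey dashed line the median of all genes and the dotted lines mark 1.5-fold. The members' median lies between −0.04 and −0.09 at P5 and reaches −0.23 at P10 6 h, and most filled points at P10 6 and 12 h lie below 0.

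Ndufb4, an accessory subunit of the membrane arm of complex I, fell furthest at 6 h. Its processed signal in the 3 naive pools was 93800, 104000 and 85400, and in their HI partners 53900, 59100 and 57700. The HI and naive pools did not overlap, and the log2 ratios of −0.80, −0.82 and −0.57 gave a mean of −0.73 ± 0.14 (SD, n = 3, adjusted p = 7.45e-07), or 0.604 of the naive level. At 12 h the ratios were −0.66, −0.62 and −0.68, with a mean of −0.65 (adjusted p = 4.08e-06), and at 3 and 24 h the mean was −0.35 and −0.34. At P5 6 h the ratios were −0.26, −0.27 and −0.29, with a mean of −0.27 (adjusted p = 0.0133), and with the dye difference taken out −0.22 (adjusted p = 0.0912), which did not pass. The gene has close copies, Ndufb4b and Ndufb4c, for which the array had no probe named here, and signal shared with them cannot be separated.

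Ndufa4, named as a complex I subunit and later assigned to cytochrome c oxidase, behaved alike at P10. Its naive signals at 6 h were 61200, 89000 and 53000 and its HI signals 40300, 50200 and 36700. Each HI pool was below every naive pool, with ratios of −0.60, −0.83 and −0.53 and a mean of −0.65 ± 0.15 (SD, n = 3, adjusted p = 1.77e-05). At 12 h the mean was −0.63 ± 0.07 (adjusted p = 5.04e-05), although there the naive pools, from 38100 to 81200, overlapped the HI pools, from 26200 to 50900. The means with the dye difference taken out were −0.55 and −0.52, which no longer reached 1.5-fold.

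Cox7a1, the form of subunit VIIa best known from heart and skeletal muscle, was the third member past 1.5-fold at 6 h. Naive signals of 2640, 2930 and 2520 stood against HI signals of 2000, 1650 and 1400, without overlap. The ratios of −0.40, −0.83 and −0.85 averaged −0.69 ± 0.25 (SD, n = 3, adjusted p = 4.01e-06), and the first array showed the smallest decrease. After removal of the dye difference the mean was −0.58 (adjusted p = 3.54e-05), just under 1.5-fold. Cox7a1 was also lower at 3, 12 and 24 h, with means of −0.56, −0.49 and −0.42. Its widespread partner Cox7a2 had means of −0.12, −0.34, −0.32 and −0.19, of which those at 6 and 12 h passed the test without the fold limit.

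At 12 h Ndufa7, Ndufaf2 and Ndufaf5 joined Ndufb4 and Ndufa4. Ndufa7, an accessory subunit of the peripheral arm of complex I, had ratios of −0.65, −0.53 and −0.70, with a mean of −0.63 (adjusted p = 3.78e-06) and HI signals of 84600, 57700 and 62100 against 133000, 83600 and 101000 in the naive pools. Ndufaf2, a chaperone of late complex I assembly, had ratios of −0.69, −0.52 and −0.64 and a mean of −0.62 (adjusted p = 5.16e-07). Ndufaf5, an assembly factor that hydroxylates the core subunit Ndufs7, had ratios of −0.68, −0.47 and −0.67 and a mean of −0.61 (adjusted p = 4.92e-05). For all 3 genes every HI pool was below its naive partner, but the pools spread widely and the highest HI signal exceeded the lowest naive signal, as 84600 against 83600 for Ndufa7. The 1.5-fold limit is close to these means: with the dye difference taken out Ndufa7 stood at −0.46 and Ndufaf5 at −0.53.

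The single call at 24 h, Cox7b2, was a dim probe. The testis-associated form of subunit VIIb had naive signals of 133, 120 and 97.7 and HI signals of 93.9, 75.8 and 55.5, and ratios of −0.50, −0.66 and −0.82 (mean −0.66, adjusted p = 0.0467). It passed in 4 of 13 alternative settings. Its bright, widespread partner Cox7b had a mean of −0.23 at 24 h, which did not pass. Cox7b has a dye difference of 0.17, and with it taken out stood at −0.46, −0.51 and −0.40 at 6, 12 and 24 h, and all 3 values passed (adjusted p = 0.0278, 0.0194 and 0.0431).

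The other isoforms of cytochrome c oxidase subunits stayed within 1.5-fold at P10. Cox6a2, the muscle form of subunit VIa, had ratios of −0.33, −0.35 and −0.64 at 6 h, with a mean of −0.44 (adjusted p = 0.0329), and a mean of −0.49 at 24 h, while Cox6a1 had means of 0.06 and 0.32. With its dye difference of −0.15 taken out Cox6a2 stood at −0.29 and −0.34 (adjusted p = 0.201 and 0.115), and neither passed. The value of Cox6a1 at 24 h passed the test, but its dye difference was 0.28, and with that taken out it stood at 0.04, and at −0.22 at 6 h (adjusted p = 0.0931). Cox4i2, the form of subunit IV known from lung and from hypoxic cells, had ratios of −0.53, −0.48 and −0.39 at 24 h, with a mean of −0.46 (adjusted p = 0.00255), and 0.16 and 0.04 at 6 and 12 h, which did not pass. Its partner Cox4i1 had −0.29 and −0.32 at 6 and 12 h, which passed, and −0.02 and −0.05 with the dye difference taken out. Cox6b1 and the testis-associated Cox6b2 were both lower at 24 h, by means of −0.37 and −0.44.

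**Figure D3:**
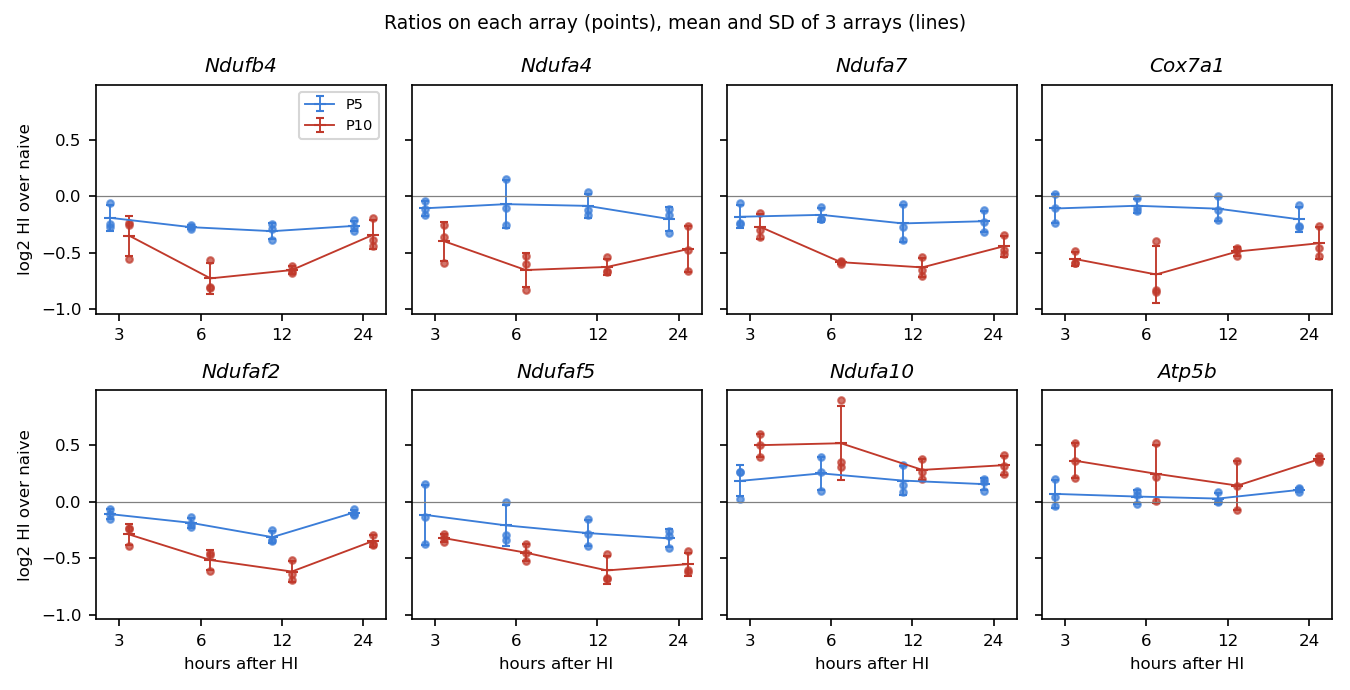
Log2 ratio of HI over naive (vertical axis) per array for 8 members at 3, 6, 12 and 24 h (horizontal axis), P5 in blue and P10 in red; points are arrays and bars the mean ± SD of 3 arrays. Ndufb4, Ndufa4, Ndufa7, Cox7a1, Ndufaf2 and Ndufaf5 lie below 0 on every P10 array at 6 and 12 h, and Ndufa10 lies above 0 on the P10 arrays at 3 and 6 h.

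Lower members were found in every complex at P10 6 h before the dye difference was taken out, where 23.1% of all genes were lower. At that time, 24 of 38 complex I subunits were lower and 2 higher at an adjusted p under 0.05, with a median of −0.24. Complexes were assigned by symbol, so that complex I here includes Ndufa4, later assigned to cytochrome c oxidase, and its relative Ndufa4l2. The 8 Ndufaf assembly factors had 6 lower and a median of −0.43, with Ndufaf8 at −0.56 and Ndufaf1, a chaperone of the membrane arm, at −0.49. Complex IV had 7 of 16 lower and a median of −0.29. ATP synthase had 9 of 17 lower and 3 higher, with a median of −0.18; its lower members included the small membrane subunits Atp5mpl at −0.57, Atp5md at −0.53 and Atp5l at −0.50. Complex II had 2 of 4 lower and complex III 3 of 9, with medians of −0.19 and −0.08. At 12 h the lower counts in the same order, complexes I, assembly factors, IV, ATP synthase, II and III, were 21, 6, 7, 10, 2 and 3, beside 18.4% of all genes. After removal of the dye difference the counts in this order were 19, 6, 6, 10, 0 and 4 at 6 h and 20, 7, 6, 10, 0 and 4 at 12 h, beside 20.4% and 15.4% of all genes, so that complex II had no lower member at these times.

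In complex II the calls at 6 and 12 h were not kept with the dye difference taken out. The membrane anchors Sdhc and Sdhd had means of −0.27 and −0.43 at 6 h and of −0.40 and −0.44 at 12 h, and all 4 values passed the test. Their dye differences were −0.15 and −0.25, and with these taken out Sdhc stood at −0.12 and −0.25 (adjusted p = 0.347 and 0.0545) and Sdhd at −0.18 and −0.19 (adjusted p = 0.0822 and 0.0687), so that none passed. The flavoprotein Sdha and the iron-sulfur subunit Sdhb had −0.12 and 0.04 at 6 h, and −0.21 and −0.11 with the dye difference taken out, and none of these passed. At 24 h Sdha was higher by 0.39 ± 0.17 (SD, n = 3, adjusted p = 0.00443), and by 0.29 with the dye difference taken out (adjusted p = 0.0312), while Sdhb was higher by 0.23 before and stood at 0.08 after (adjusted p = 0.525).

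Core subunits and the remaining members were also counted apart. A set of 16 catalytic core subunits (Ndufs1, Ndufs3, Ndufs7, Ndufs8, Ndufv1 and Ndufv2 of complex I, Sdha and Sdhb, Uqcrc1, Uqcrc2, Cyc1 and Uqcrfs1 of complex III, and Atp5a1, Atp5b, Atp5c1 and Atp5d of the catalytic part of ATP synthase) was set apart from 75 other members after the values were seen, so that the following counts are descriptions without a test. Of the 16, 7, 3, 0 and 6 were higher and 0, 2, 3 and 0 lower at 3, 6, 12 and 24 h at P10, with medians of 0.23, 0.05, 0.03 and 0.14. Of the 75 others, 2, 2, 2 and 7 were higher and 18, 49, 46 and 30 lower, with medians of −0.12, −0.27, −0.29 and −0.13. Among all genes, 14.8%, 19%, 17.5% and 28.8% were higher and 9.72%, 23.1%, 18.4% and 19.2% lower at these times. The set holds no gene of complex IV, and the difference between the sets was not tested. Some of its genes, such as Uqcrc1 and Uqcrc2, carry no cofactor or nucleotide site themselves. The 75 others include the 8 Ndufaf assembly factors beside accessory subunits. The core counts with the dye difference taken out were 5, 1, 0 and 4 higher and 0, 2, 2 and 0 lower. In that setting 12.4%, 16.6%, 15% and 27.7% of all genes were higher and 7.49%, 20.4%, 15.4% and 17.3% lower. At P5 the core medians, from −0.08 to 0.02, were near those of the other members.

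Ndufa10, an accessory subunit of complex I related to nucleoside kinases, was the only member higher at all 4 P10 times at an adjusted p under 0.05 (1.09%, against 5.43% of all genes). Its naive signals at 3 h were 2720, 2570 and 2820 and its HI signals 3850, 3900 and 3710. All HI pools were above all naive pools, with ratios of 0.50, 0.60 and 0.40 and a mean of 0.50 (adjusted p = 0.000866). At 6 h the ratios were 0.35, 0.89 and 0.31, so that the second array raised the mean to 0.52 ± 0.33 (SD, n = 3). A dye difference of 0.19 lay under these values, and with it taken out the means were 0.31, 0.33, 0.09 and 0.13, of which those at 3 and 6 h passed the test.

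Among the core subunits, Atp5b, the catalytic beta subunit of ATP synthase, had ratios of 0.36, 0.52 and 0.21 at 3 h, with a mean of 0.36 (adjusted p = 0.00529), and a mean of 0.37 at 24 h. With its dye difference of 0.17 taken out, none of its 4 P10 values passed. Ndufs7, an iron-sulfur subunit of complex I, had means of 0.32, 0.26 and 0.33 at 3, 6 and 24 h and 0.12 at 12 h, and the first 3 passed. Its value at 6 h with the dye difference taken out was 0.21 (adjusted p = 0.0764), and those at 3 and 24 h passed. Ndufs3 was higher at 3 and 24 h by 0.22 and 0.26, and Uqcrc2, a core protein of complex III, by 0.31 at 3 h. These 3 genes also passed at 3 h with the dye difference taken out.

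In all, 60 members were lower and 15 higher at 1 or more P10 times without the fold limit, which is 65.2% and 16.3% against 38.8% and 39.8% of all genes, and 18 passed at no time. Of the 92, 51 were lower and 11 higher at 1 or more times with the dye difference taken out. A single member, Ndufab1, the mitochondrial acyl carrier protein, was in both groups: it stood at −0.47 and −0.40 at 6 and 12 h and at 0.54 at 24 h, with 24 h ratios of 0.84, 0.36 and 0.41 on naive signals between 117 and 134. Lower at all 4 times were 14 members, or 15.2% against 3.49% of all genes: Atp5e, Atp5md, Atp5mpl, Cox7a1, Ndufa4, Ndufa7, Ndufaf2, Ndufaf5, Ndufaf7, Ndufb4, Ndufb9, Ndufs4, Sdhd and Uqcr11. With the dye difference taken out 8 members were lower at all 4 times, and 7 of the 14 were among them, namely Atp5md, Atp5mpl, Cox7a1, Ndufa4, Ndufaf2, Ndufaf7 and Ndufb4. The eighth was Atp5k, a small membrane subunit of ATP synthase. The shares of all genes given here were counted before the dye difference was taken out. They are not a measure for the counts of 51, 11 and 8 members, which have no such share.

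The promoters of the members that carried these results are shown because several members moved together. The RefSeq windows (GRCm38.p6), of 300 bases, matched 75 of the 92 members, and those of Ndufb4, Ndufa4, Ndufa7, Cox7a1 and, as the member that rose, Ndufa10 are printed for the 250 bases before the listed start, 5′ to 3′ on the strand of the gene. Capitals mark the letters CCGGAAG (bound by ETS factors such as GABP), TGCGCA (the centre of the NRF1 site), AAGATGGC (YY1) and GCGTG (a hypoxia response core) on either strand. The Ndufa10 window overlaps the 5′ end of its annotated gene, and for Ndufa7 the first of 2 listed windows is printed.
Ndufb4, chr16:37654369-37654618, minus strand: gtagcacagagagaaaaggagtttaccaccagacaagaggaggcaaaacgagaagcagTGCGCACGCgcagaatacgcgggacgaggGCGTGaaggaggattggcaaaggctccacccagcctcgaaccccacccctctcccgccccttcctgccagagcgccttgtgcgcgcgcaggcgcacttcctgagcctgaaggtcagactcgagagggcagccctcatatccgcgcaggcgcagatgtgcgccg
Ndufa4, chr6:11907451-11907700, minus strand: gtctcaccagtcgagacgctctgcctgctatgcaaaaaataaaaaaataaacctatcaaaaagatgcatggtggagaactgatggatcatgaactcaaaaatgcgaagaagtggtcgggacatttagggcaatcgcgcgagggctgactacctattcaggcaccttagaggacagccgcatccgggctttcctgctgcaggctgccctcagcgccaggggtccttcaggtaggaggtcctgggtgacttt
Ndufa7, chr17:33824322-33824571, plus strand: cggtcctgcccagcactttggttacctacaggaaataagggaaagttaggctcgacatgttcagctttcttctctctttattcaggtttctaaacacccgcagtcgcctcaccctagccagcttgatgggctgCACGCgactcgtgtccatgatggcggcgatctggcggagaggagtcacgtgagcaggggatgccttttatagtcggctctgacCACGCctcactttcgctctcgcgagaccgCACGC
Cox7a1, chr7:30183921-30184170, plus strand: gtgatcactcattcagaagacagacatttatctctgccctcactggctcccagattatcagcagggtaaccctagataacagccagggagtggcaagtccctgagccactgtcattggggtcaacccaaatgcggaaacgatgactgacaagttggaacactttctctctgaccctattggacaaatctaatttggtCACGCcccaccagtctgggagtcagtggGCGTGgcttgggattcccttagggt
Ndufa10, chr1:92473759-92474008, minus strand: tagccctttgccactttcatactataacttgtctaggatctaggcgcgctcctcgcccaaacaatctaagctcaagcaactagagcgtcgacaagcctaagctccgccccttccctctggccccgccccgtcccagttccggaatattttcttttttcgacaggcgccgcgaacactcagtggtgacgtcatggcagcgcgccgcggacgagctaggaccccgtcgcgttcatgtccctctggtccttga

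The Ndufb4 window held TGCGCA with an overlapping CACGC, the reverse complement of GCGTG, and a second GCGTG. The Ndufa7 window held CACGC 3 times, Cox7a1 held CACGC and GCGTG, and neither Ndufa4 nor Ndufa10 held any of the 4 letter runs. Over all 300 bases of the 75 members, CCGGAAG was present in 24.0% against 9.12% of 27025 genes, TGCGCA in 25.3% against 8.06% and AAGATGGC in 13.3% against 2.88%. GCGTG was present in 54.7% of the members against 32.5%, and in 65.9% of the 44 members that were lower at P10 6 h against 38.7% of the other 31. The other hypoxia response core, ACGTG, was in 22.7% of the members against 19.7% of all genes, and in 18.2% of those 44 against 29.0% of the 31. On the same split CCGGAAG was in 27.3% against 19.4%, TGCGCA in 20.5% against 32.3% and AAGATGGC in 13.6% against 12.9%. The 44 were chosen before the dye difference was taken out, and the split was not tested. The members' windows were richer in G and C, with a median of 57.6% against 52%, and no motif share was corrected for that. A match describes letters only.

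The difference between the ages was tested directly, as P10 minus P5 in the log2 ratio at the same time. A dye difference that is the same at both ages drops out of this contrast, but the ages lay on different slides. It was measured at P2 and P15 only, and that it is the same at P5 and P10 was assumed. At 6 h, 14 members were lower at P10 than at P5 and 1 was higher at an adjusted p under 0.05, which is 15.2% and 1.09% of the members against 5.53% and 4.67% of all genes. At 12 h the counts were 3 and 1, against 1.37% and 1.55%, and at 24 h 1 and 1, against 1.85% and 6.48%. At 3 h no member passed, against 0.167% of all genes in either direction. An unadjusted p under 0.05 was found for 19 members, a count without a share of all genes beside it.

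With a difference of 1.5-fold added, 1 member passed at 6 h, Cox7a1, against 2.15% of all genes lower. Its P5 ratios at 6 h were −0.11, −0.01 and −0.13 and its P10 ratios −0.40, −0.83 and −0.85, and the groups did not overlap. The difference was −0.61 (SE 0.11, adjusted p = 0.00459). Without the second P5 array or without the second P10 array at 6 h, 0 members passed. At 3, 12 and 24 h 0 passed, against 0.138%, 1.3% and 4.98% of all genes. There 19, 29 and 17 members had an unadjusted p under 0.05, again without a share of all genes beside them.

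The other members with a larger fall at P10 6 h included Ndufa4, with a difference of −0.58 (adjusted p = 0.00785), Ndufaf8 with −0.56, Atp5mpl with −0.50, Ndufa11, a membrane arm subunit of complex I, with −0.47, and Ndufb4 with −0.45. Ndufv1, the flavoprotein that receives electrons from NADH, was the member on the other side, with 0.33 at both 6 and 12 h. Its P5 ratios at 6 h were −0.28, −0.36 and −0.13, and its P10 ratios 0.00, 0.07 and 0.16, without overlap. With its dye difference of −0.08 taken out it stood at −0.18 at P5 and 0.15 at P10, and neither value passed by itself. Ndufaf2 differed at 6, 12 and 24 h, by −0.33, −0.30 and −0.25.

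Other genes of the pathway were read from lists of known members. Of 31 assembly factors outside the naming rule, 11, 18, 16 and 16 were lower and 2, 2, 0 and 3 higher at 3, 6, 12 and 24 h at P10 at an adjusted p under 0.05, with a median of −0.32 at 6 h. Sdhaf3, an assembly factor of complex II, had −1.06 at 6 h and −1.08 at 12 h, and Coa6, a copper chaperone of cytochrome c oxidase, −0.74 and −0.66. Cox10, which makes heme for the same enzyme, was higher by 0.92 at 6 h (adjusted p = 0.00039). Of 77 proteins of the mitochondrial ribosome, 24, 47, 41 and 20 were lower and 3, 1, 3 and 5 higher, with medians of −0.11, −0.20, −0.21 and −0.08, close to those of the respiratory chain. Among all genes, 9.72%, 23.1%, 18.4% and 19.2% were lower and 14.8%, 19%, 17.5% and 28.8% higher at these times. The dye difference was not taken out for these lists or for those that follow.

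Genes of pathways that feed the chain were counted in the same way. At the 4 P10 times 14.8%, 19%, 17.5% and 28.8% of all genes were higher and 9.72%, 23.1%, 18.4% and 19.2% lower. The difference from all genes was not tested. Of 16 glycolytic genes, 11, 13, 6 and 9 were higher at P10 and 0 lower, with medians of 0.47, 0.48, 0.24 and 0.29, and Eno1 and Gapdh were higher by 0.96 and 0.94 at 6 h. At P5 0 of the 16 passed at any time. Among all genes at the 4 P5 times, 4.24%, 6.8%, 7.62% and 3.8% were higher and 3.97%, 8.44%, 10.1% and 2.67% lower. A count of 0 among 16 genes lies near these shares. Of 13 genes of the tricarboxylic acid cycle, 6, 7, 3 and 8 were higher and 0, 2, 1 and 0 lower at P10, and Cs, citrate synthase, was higher by between 0.40 and 0.45 at all 4 times. Of 12 regulators of mitochondrial gene expression, 2, 3, 1 and 4 were higher and 3, 6, 3 and 1 lower. Ppargc1a, a coactivator of mitochondrial biogenesis, was higher by 0.65 at 6 h, Nrf1 by 0.56, and Gabpa, the DNA-binding part of GABP, and Tfb1m, a mitochondrial ribosomal RNA methyltransferase, were lower by −0.64 and −0.69.

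Markers of the cells in a hemisphere were read beside the fall at P10 6 h, when 19% of all genes were higher and 23.1% lower. Of 10 neuron markers, 5 were higher and 1 lower, with a median of 0.23, and their summed signal ran from 67270 to 101900 in the naive pools and from 88630 to 147100 in the HI pools. All 5 astrocyte markers were higher, with a median of 0.71 and sums of 5172 to 7588 and of 9750 to 11370. Of 5 microglia markers 3 were lower, with a median of −0.39, of 5 oligodendrocyte markers 2 were higher, both neutrophil markers measured were higher, and 0 of 3 erythroid markers passed. The summed neuron markers were not lower in the HI pools at 6 h. A sum of signals rests mostly on its brightest markers and says little of the dimmer ones. At P10 the median naive signal was 40050 for Snap25 and 19300 for Tubb3, and 5435 for Syt1, the next brightest. At 24 h, when 30 members were lower, the neuron sum ran from 78760 to 92470 in the naive pools and from 55890 to 71960 in the HI pools, lower without overlap. The part of cell composition in the result was not tested.

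In naive brain, the level of a member is given as the log2 of its Cy3 signal minus the 75th percentile of the array. The median level of the 92 members was 4.32 to 4.49 on the 4 arrays at P2, 4.35 to 5.53 on the 12 at P5, 5.77 to 6.14 on the 12 at P10 and 5.20 to 5.93 on the 4 at P15. At an adjusted p under 0.001 and 2-fold, 57 members were higher at P10 than at P5 and 0 lower, which is 62.0% of the members against 22.3% of all genes. From P2 to P5 1 member rose, against 4.9% of all genes, and from P10 to P15 9 fell, against 14.6%. The 9 were Atp5e, Atp5md, Atp5mpl, Cox4i1, Cox4i2, Cox6b2, Cox7a1, Ndufa7 and Ndufb8.

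The 3 slides of P5 did not hold the same level. The members' median was 4.35 to 4.49 on the 8 arrays of slides 1 and 2 and 5.31 to 5.53 on the 4 arrays of slide 3, without overlap. Ndufb4, for example, had naive signals of 14000, 26900 and 50000 at 6 h on slides 1, 2 and 3. Unlike the levels, these signals are not scaled between arrays and so also hold the brightness of each array. On slide 3, 90 of the 92 members were higher, by a median of 1.05 on the log2 scale with a range from −0.55 (Sdha) to 1.96 (Atp5e), while the median of all genes differed by 0.07. At least 2-fold higher were 54.3% of the members and 16.4% of all genes. With P5 taken from slide 3 alone, 8 members were higher at P10 than at P5, against 9.22% of all genes. Without slide 3 the count was 68, against 3754 of 13759 genes. The size of the rise from P5 to P10 therefore rests on which slide stands for P5, and whether slide 3 differs by its animals or by the slide cannot be told apart. The P10 arrays lay on slides of their own as well. Neither the rise from P5 to P10 nor the fall from P10 to P15 can therefore be told apart from a slide difference.

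The members that were higher on slide 3 were also those with lower ratios at P10, on other arrays. Across the 92 members, the Spearman correlation of the slide 3 difference at P5 with the HI ratio at P10 was −0.36, −0.47, −0.66 and −0.59 at 3, 6, 12 and 24 h, and across all genes it was −0.31, −0.27, −0.37 and −0.54. These values describe genes and not samples, and genes of one complex are not independent.

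**Figure D4:**
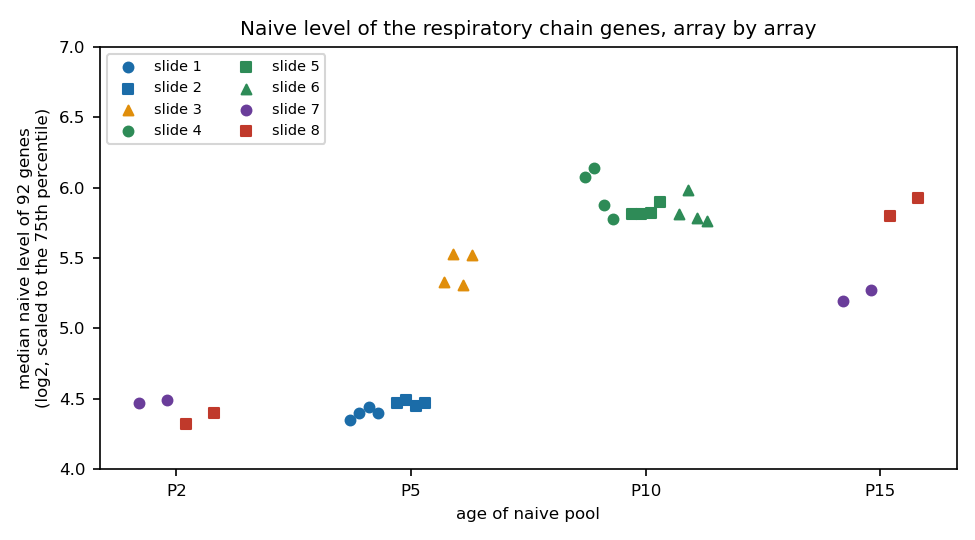
Median naive level of the 92 members (vertical axis, log2 of the Cy3 signal minus the array's 75th percentile) on each of the 32 arrays, by age and slide. The 4 arrays of slide 3 at P5 lie between 5.31 and 5.53, above the other 8 P5 arrays, and the P15 arrays of slide 7 lie below those of slide 8.

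The P2 and P15 arrays shared slides, although the values of this comparison come from the fit of all 32 arrays without a slide term. At an adjusted p under 0.001 and 2-fold, 27 members were higher at P15 and 0 lower, or 29.3% against 12% of all genes, and with the slide as a block on those 8 arrays alone 44 were higher, against 14.1%. At an adjusted p under 0.05 without a fold limit 78 were higher, against 27.7% of all genes, and 0 were lower. The median difference was 0.72 on slide 7 and 1.34 on slide 8, with 91 and 92 members higher. In 84 of the 92 members every P15 pool was above every P2 pool, as in 33.3% of all genes; the exceptions were Cox6b2, Ndufa10, Ndufa4l2, Ndufab1, Ndufaf2, Ndufaf4, Ndufaf6 and Sdha. The count of 27 was 9 without the third or without the fourth P15 pool.

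Cox6a2, the form of subunit VIa best known from heart and skeletal muscle, rose most. Its level was −1.55, −1.53, −1.70 and −1.88 in the 4 P2 pools and 1.98, 1.84, 2.35 and 2.44 in the 4 P15 pools. No pools overlapped, and the difference was 3.82 (SE 0.25, adjusted p = 1.1e-13), or 14.1-fold, with 3.45 on slide 7 and 4.18 on slide 8. It was also the single member called from P2 to P5, and it rose by 2.29 from P5 to P10. Its widespread partner Cox6a1 rose by 0.86 from P2 to P15 (adjusted p = 0.0248) and was not called. With the slide as a block Cox6a2 kept its call (adjusted p = 4.96e-07).

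Cox7a1, the second muscle form, rose by 1.77 (adjusted p = 0.00012) from P2 to P15, and its partner Cox7a2 by 1.31 (adjusted p = 0.00139). Markers of striated muscle were read beside the pair: Ckm, which defines adult muscle, was well above background on 0 arrays at P2 and P15, Acta1 had medians of 312.9 and 283.2, Myh4 of 53.95 and 52.55 and Tnnt3 of 39.62 and 22.32, while Myl1 went from 21.71 to 463.6. The summed signal of the 5 ran from 392.2 to 450.2 at P2 and from 759.4 to 887.9 at P15. Their part in the rise of Cox6a2 and Cox7a1 was not tested.

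The other members with the largest rises from P2 to P15 were Ndufa4 by 1.90 (adjusted p = 0.000221), Cox7b2 by 1.87 (adjusted p = 4.81e-05) and Cox6c by 1.77 (adjusted p = 3.52e-05). Cox7b2 was dim throughout, with signals from 22.4 to 39.2 at P2 and from 44.4 to 88.2 at P15. Cox8a, the widespread form of subunit VIII, rose by 1.35 and was called, and Cox7b, Cox6b1 and Cox4i1 rose by 1.56, 1.36 and 1.20 at adjusted p-values of 0.00302, 0.00168 and 0.00314, above the limit of 0.001. With the slide as a block Cox7b, Cox6b1, Cox4i1, Cox7a2, Sdhc and Sdhd were called as well. Of the less widespread forms, Cox4i2 rose by 0.82 (adjusted p = 0.0144), and Cox6b2 stood at 0.48 (adjusted p = 0.152).

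Of the 16 core subunits 2 were called higher at P15 than at P2, Ndufs8 and Uqcrc2, as were 25 of the 75 others, against 12% of all genes. Ndufs1 and Ndufv1 differed by 0.72 and 0.58, Cyc1 and Uqcrfs1, the heme and iron-sulfur carriers of complex III, by 0.95 and 0.81, and Sdhb by 0.58, all at an adjusted p under 0.05 and below the 2-fold limit. Sdha, the flavoprotein of complex II, stood at 0.11 (SE 0.17, adjusted p = 0.606), with 0.20 on slide 7 and 0.02 on slide 8, whereas the membrane anchors Sdhc and Sdhd of the same complex rose by 1.04 and 1.32 (adjusted p = 0.00254 and 0.00118). Ndufa4l2, the relative of Ndufa4 that is induced by hypoxia in many cells, stood at 0.06 (adjusted p = 0.825), and after HI at P10 its means, from −0.27 to 0.04, did not pass at any time.

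**Figure D5:**
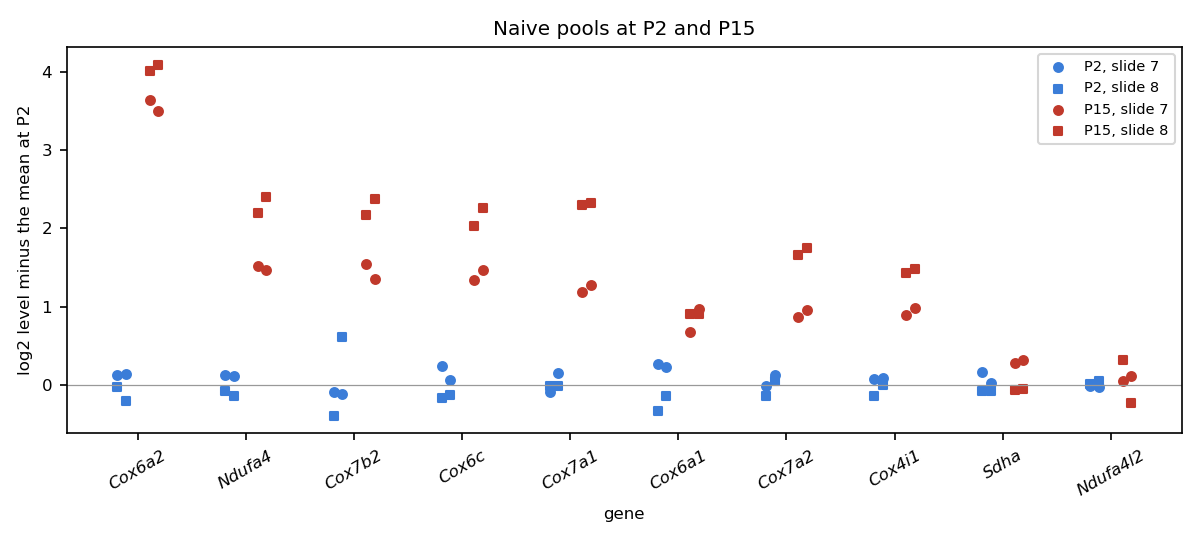
Naive level of 10 members per pool at P2 and P15 (vertical axis, log2 level minus the mean of the 4 P2 pools), with symbols for the 2 slides. Cox6a2 stands 3.82 above P2 on average, Ndufa4, Cox7b2, Cox6c and Cox7a1 between 1.77 and 1.90, and the pools of Sdha and Ndufa4l2 overlap between the ages.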

How the data were processed

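RNA of pooled hemispheres had been hybridised by the authors to 2-colour Agilent arrays (32 arrays, 44397 spots each). The deposited intensity columns hold, per the file headers, the processed Cy5 and Cy3 signals of Feature Extraction 10.5.1.1: background-subtracted, dye-normalised within each array and not scaled between arrays. The deposited log10 ratios of the authors were read only to check the direction, and the ratios used here were log2 of HI over naive processed signal, computed from the deposited intensity values. Control and outlier spots were left out and spots of a probe averaged. Symbols came from RefSeq through transcript accessions (12002 of 39429 probes stayed unnamed), and a gene was represented by its brightest kept probe. Probes under a mean signal of 100 in every HI group were dropped (22433 kept). limma 3.58.1 in R 4.3.3 fitted all probes, with Benjamini-Hochberg adjustment over all kept probes; the HI fit used 24 arrays, and the naive fit the Cy3 channel of all 32 arrays minus each array's 75th percentile. Calls needed an adjusted p under 0.05 and 1.5-fold (HI) or under 0.001 and 2-fold (naive levels), the thresholds of the study's methods, which used t-tests. The dye difference was estimated on the P2 and P15 arrays. Same-numbered P2 and P15 pools shared slides, and their deviations correlated by 0.266, 0.228, 0.155 and 0.341.

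Named genes were members called in HI or in the difference of ages, the 5 largest changes from P2 to P15, the isoform pairs of complex IV, and complex II and core subunits; others were named after their values were seen. Members and lists were chosen with earlier results of these data known. A single item is not reported here and was left out of the core set. Precision is limited by 3 arrays per HI group. Normexp used median spot signals (offset 50). Scripts were tested on simulated data. Python 3.11.15, pandas 2.3.3, matplotlib 3.10.9 and statmod 1.5.0 were also used.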

Additional observations from a re-analysis of the deposited data

Results flagged for a closer look

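One result met the criteria for a closer look, because the same contrast differed between the 2 ages. Cox7a1 fell by a mean of 0.69 on the log2 scale after HI at P10 6 h and stood at −0.09 at P5 6 h, and the test of the difference gave −0.607 (adjusted p = 0.00459, limma); in the 14 alternative settings the difference ran from −0.75 to −0.53 and was called in 10. Of 54 groups of 4 naive pools tested for a single outlying pool, 0 passed.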

How the results depend on the processing

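The fold limit decided the counts of members called after HI. Without it, 6, 14, 18 and 9 members were called at P5 at 3, 6, 12 and 24 h (0 with it), and 27, 56, 51 and 43 at P10 (0, 3, 5 and 1 with it); for the difference between ages the counts at 6, 12 and 24 h were 15, 4 and 2 (1, 0 and 0 with it). With the dye difference taken out and no fold limit, a combination chosen after seeing the data, they were 1 and 5 at P5 6 and 12 h, 21, 48, 48 and 30 at P10, and 1, 20, 12 and 5 for the difference. For the difference in that fit, 0, 3, 2 and 3 members were higher and 1, 17, 10 and 2 lower. Among 13759 genes, 216, 926, 492 and 1543 were higher and 93, 1085, 428 and 549 lower. For the difference between ages that fit leaves the log2 values as they were. Only the estimated spread changes, because the naive arrays enter it as well. The dye difference taken out with the fold limit kept gave 3 at P10 12 h and 0 at 24 h. Normexp with loess gave 2 at 12 h, 0 at 24 h and 0 for the difference at 6 h. Reading any probe of a gene gave 5 at P10 6 h and 2 for the difference at 6 h, centring the arrays gave 2 there, no signal minimum and the filter on background each gave 0 at 24 h, and leaving out the first P10 arrays at 12 and 24 h together, also chosen later, gave 3 and 0. A t-test against zero at an uncorrected p under 0.05 gave 3, 5 and 1 at P10 6, 12 and 24 h with the fold limit. After Benjamini-Hochberg adjustment, the form that the study's methods name, the t-test gave 0. A further criterion of those methods, on the fold change in single replicates, was not applied. Without each array in turn the P10 counts at the successive times ran from 0 to 1, 2 to 9, 3 to 6 and 0 to 2 (0 at 24 h without the first array), and that for the difference at 6 h from 0 to 3. P5 and P10 arrays of one replicate number shared only a number (correlations from −0.359 to 0.208), and the replicate block gave 2 for the difference at 6 h.

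For naive levels, an adjusted p under 0.05 with no fold limit gave 14, 88, 41 and 78 members for P5 over P2, P10 over P5, P15 over P10 and P15 over P2 (1, 57, 9 and 27 as reported). Normexp with quantile normalization gave 0, 19 and 3 for the first 3 comparisons, the slide as a random block 0, 1 and 46 for the first and the last 2, and the methods' t-test 0, 15 and 9 for the same. No signal minimum and the filter on background each gave 2 for P5 over P2. Signals before dye normalization gave 29 for P15 over P10 and 15 for P15 over P2, and the replicate block, which pairs P2 and P15 pools by slide, gave 20 and 37. Chosen after seeing the data, P5 from slide 3 gave 45 and 8 for the first 2, and the slide as a fixed block gave 44 for P15 over P2. The 45 were all higher, against 2193 of 13759 genes higher. Without each array in turn the counts ran from 1 to 12 for P15 over P10 (1 without the first and 2 without the second P15 pool) and from 9 to 28 for P15 over P2. None of the 15 single-gene values, of 9 genes, followed through the alternatives reversed. Values that did not pass could change sign: Cox6a1 at P10 6 h went from 0.06 to −0.22 and Sdhb from 0.04 to −0.11 with the dye difference taken out. Among changed counts the cause was not tested, apart from limits removed and arrays left out of or added to a fit by construction.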
